A study of Mus musculus with 4 samples.

Results

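miR-103 (mmu-miR-103) and miR-107 (mmu-miR-107) are paralogous microRNAs, small RNAs that guide Argonaute proteins to messenger RNAs with matching sites and lower their output. They were picked out by name and not by a cut on their values, though earlier results of these data were known. They are 2 of the 577 miRNA names on an Agilent mouse miRNA array, and all 4 of their probes were used, of 1712 probes in all. A3-1 cells, a line of mouse embryonic stem cells, were grown with 20% FBS, non-essential amino acids and LIF, the cytokine that keeps such cells undifferentiated. One group received an siRNA against Lin28a, and the control group received an siRNA against GFP. The labels name no other genetic change or agent, so both groups share the line, the medium and exposure to an siRNA, and no untreated cells were profiled. Total RNA was taken after 48 h from 2 replicates per group, and 100 ng of each was labelled with Cy3 and hybridised to 1 array. Nothing states that the replicates were separate cultures, so the spread behind every p-value is that of these RNA samples and may be technical only. A miRNA array does not measure Lin28a mRNA, so the depth of the knockdown was not read here.

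LIN28A is an RNA-binding protein of stem cells. It binds the terminal loop of let-7 precursors, where its zinc knuckles recognise a GGAG or similar motif, and it recruits an enzyme that adds uridines and so prevents maturation by Dicer. The precursor of miR-107 has been named, with those of miR-143 and miR-200c, as a precursor outside the let-7 family that carries such a motif. miR-103 comes from 2 other precursors. miR-103 and miR-107 are broadly expressed and are known for repressing Dicer and for dampening insulin signalling. The comparison therefore asks whether the 2 near-identical mature miRNAs behave alike when LIN28A is targeted.

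The mature sequences are shown first because they set what the array can separate. Both were matched by name in the RefSeq table, with coordinates of build GRCm38.p6, and the capitals mark the seed, bases 2 to 8, which pairs with target messenger RNAs.
miR-103-3p: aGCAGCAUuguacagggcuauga
miR-107-3p: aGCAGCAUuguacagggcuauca
The 2 miRNAs share 22 of 23 bases and the whole seed, and they differ by the substitution G22C, given as the base of miR-103, the position from the 5′ end and the base of miR-107. A target site that pairs only with the seed cannot separate them.

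The precursor hairpins are shown because the motif lies there and not in the mature RNA. Capitals mark GGAG where it occurs between the 2 mature arms.
Mir103-1: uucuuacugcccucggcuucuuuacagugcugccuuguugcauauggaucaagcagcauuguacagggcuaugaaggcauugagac
Mir103-2: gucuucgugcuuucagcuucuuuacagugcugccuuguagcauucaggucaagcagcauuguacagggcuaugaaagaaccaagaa
Mir107: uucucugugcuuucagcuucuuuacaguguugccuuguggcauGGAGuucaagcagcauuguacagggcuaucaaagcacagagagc
In each hairpin the segment between the arms is 14 bases long, from base 38 to base 51. In Mir107 the letters GGAG stand at bases 44 to 47, and neither Mir103 hairpin holds them between its arms. Only these exact letters were searched, so similar motifs were not counted. The segment of Mir103-1 holds ggau. The loop of Mir107 differs from that of Mir103-1 at 5 of 14 bases and from that of Mir103-2 at 4 of 14. GGAG occurred in the segment searched in 10.7% of 989 mouse hairpins in the table, and in 2 of the 83 hairpins (2.41%) with a segment of this length. That segment lay between the arms. Where an arm was not annotated, it was a fixed stretch on the loop side of the other arm, which can run into the unannotated arm. The search read the RNA strand only, since the precursor is single-stranded RNA. A match to 4 letters is a description of the sequence and not a binding site.

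The 3 hairpins lie in different places in build GRCm38.p6. Mir103-1 lies on the plus strand of chromosome 11 at 35782396 to 35782481, Mir103-2 on the plus strand of chromosome 2 at 131288052 to 131288137, and Mir107 on the minus strand of chromosome 19 at 34820687 to 34820773. Each lies within the span of a pantothenate kinase gene, Pank3, Pank2 and Pank1 in that order. These genes encode the enzymes that start coenzyme A synthesis, and the miRNAs are known to sit in their introns. The mature miR-103 of both precursors is the same molecule, so the array gives 1 value for the output of both.

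The array's probe targets are given in build mm9. The 2 miR-103 probes, A_54_P1341 and A_54_P1342, have targets of 18 and 17 bases on chromosome 11, between 35595954 and 35595971. The 2 miR-107 probes, A_54_P1420 and A_54_P1421, have targets of 20 and 19 bases on chromosome 19, between 34895190 and 34895209. The files give 1 locus per name, so no probe is listed for the chromosome 2 copy of miR-103. How far the probes of one paralog bind the other was not tested, and the files do not spell out the probe letters.

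Facts of the whole set of arrays bear on these values. The arrays lay on 1 slide, and between 32.5% and 38.8% of spots were well above background, with both siLin28a arrays above both siGFP arrays. All 8 miRNAs of the miR-290 cluster listed as markers of embryonic stem cells were detected on all 4 arrays. Of 5 miR-302 cluster markers of primed pluripotent cells, 0 were detected on both arrays of either group, though 1 was detected on 1 siLin28a array. No muscle or endoderm marker was detected on any array. Of 7 fibroblast or feeder markers on the array, 4 were detected on both arrays of each group, with summed total gene signals of 361 to 427 with siGFP and 458 to 485 with siLin28a. Of 4 neural markers 3 were detected, with sums of 209 to 255 with siGFP and 244 to 330 with siLin28a, and of 4 blood markers 2 were, with sums of 89.8 to 110.3 and 104 to 141.99. These sums are not scaled between arrays, and their part in the values of miR-103 and miR-107 was not tested. In bulk RNA, fewer cells of a type and less RNA per cell cannot be told apart.

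Both miRNAs were well measured. Each probe had 10 spots per array, and all 160 spots were well above background, with none saturated. The spots of a probe on an array varied with a coefficient of variation of 2.81% to 8.78% (median 5.18%).

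For miR-103, the mean processed signals of probe A_54_P1341, in linear intensity units, came to 321 and 307 with siGFP against 356 and 338 with siLin28a. Those of probe A_54_P1342 were lower, 226 and 218 on the control arrays against 249 and 243 with siLin28a. For miR-107, probe A_54_P1420 had mean signals of 310.3 and 301 with siGFP and 368 and 362 with siLin28a. Probe A_54_P1421 had 154 and 146 with siGFP and 176 and 178 with siLin28a. Before scaling, every probe of both miRNAs was therefore brighter on both siLin28a arrays than on either siGFP array. This held for 51.2% of 477 kept probes of all miRNAs, and the arrays' 75th percentile signal was likewise higher with siLin28a (248 and 265) than with siGFP (226 and 219.7).

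**Figure D1:**
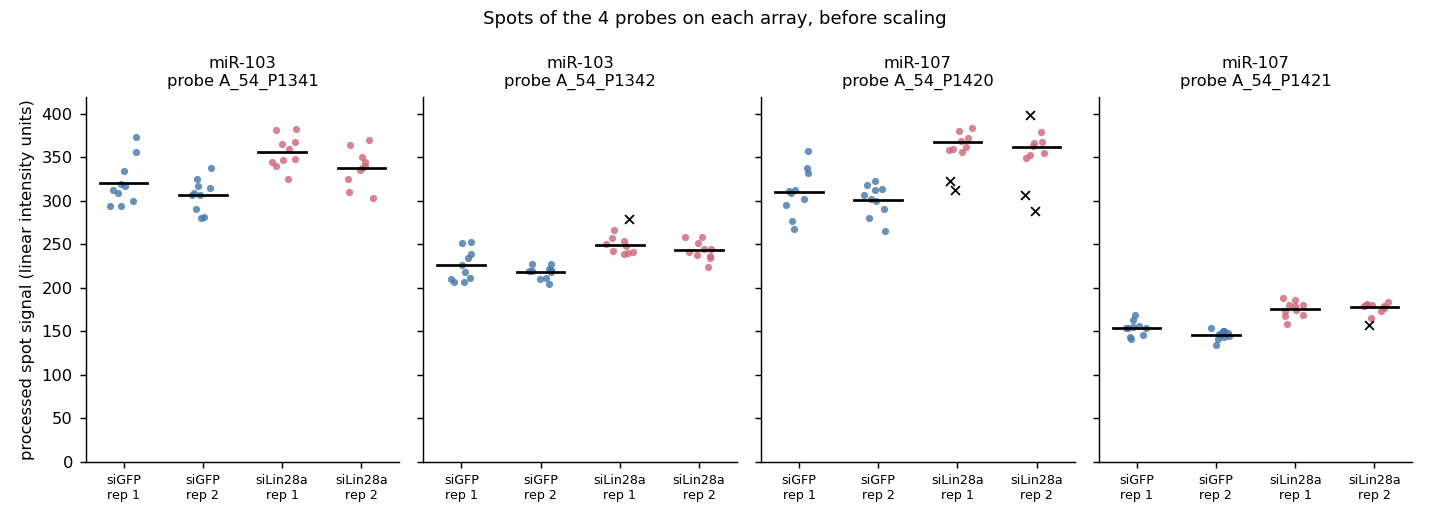
Processed signal (linear intensity units) of every spot of the 4 probes on each of the 4 arrays, before scaling. Dots are spots used, crosses are spots left out as outliers and bars are means of the spots used. All 4 probes have higher means on the siLin28a arrays, and the 7 crosses all lie on siLin28a arrays, 5 of them in probe A_54_P1420.

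The outlier flags of the files removed 7 of the 160 spots, all 7 on siLin28a arrays and 6 of them of miR-107. Probe A_54_P1420 of miR-107 lost 2 spots on the first siLin28a array and 3 on the second. Its means there were 358 and 353 with all spots and 368 and 362 without the flagged ones. The flags therefore raised the siLin28a level of miR-107 slightly and left its siGFP level as it was.

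The total gene signal, which sums over the probes of a miRNA on another scale, showed the same order. For miR-103 it was 379 and 383 with siGFP and 431 and 421 with siLin28a. For miR-107 it was 321 and 326 with siGFP and 387 and 391 with siLin28a. The group means of miR-103 were 381 ± 2.93 and 426 ± 6.94 (SD, n = 2 each), a ratio of 1.12. Those of miR-107 were 324 ± 3.43 and 389 ± 2.85 (SD, n = 2 each), a ratio of 1.203. The authors' deposited table holds the same values rounded, 378.5, 382.7, 431.0 and 421.2 for miR-103 and 321.1, 326.0, 387.2 and 391.2 for miR-107. None of these is scaled between arrays.

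Scaling set the overall brightness of the arrays equal. Each array was divided by its 75th percentile signal, and log2 values were averaged over both probes. miR-103 then had log2 scaled levels of 0.25 and 0.24 with siGFP and 0.26 and 0.11 with siLin28a. miR-107 had levels of -0.049 and -0.067 with siGFP and 0.035 and -0.062 with siLin28a. The groups overlapped for both miRNAs and for each of their 4 probes, while 59.7% of 477 probes did not overlap. The siGFP replicates lay 0.018 apart for each miRNA, and the siLin28a replicates 0.15 apart for miR-103 and 0.097 apart for miR-107, with the first siLin28a array above the second both times. The means and SDs of miR-103 were 0.24 ± 0.013 and 0.19 ± 0.11, and those of miR-107 were -0.058 ± 0.013 and -0.013 ± 0.069 (siGFP, then siLin28a, n = 2 each).

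**Figure D2:**
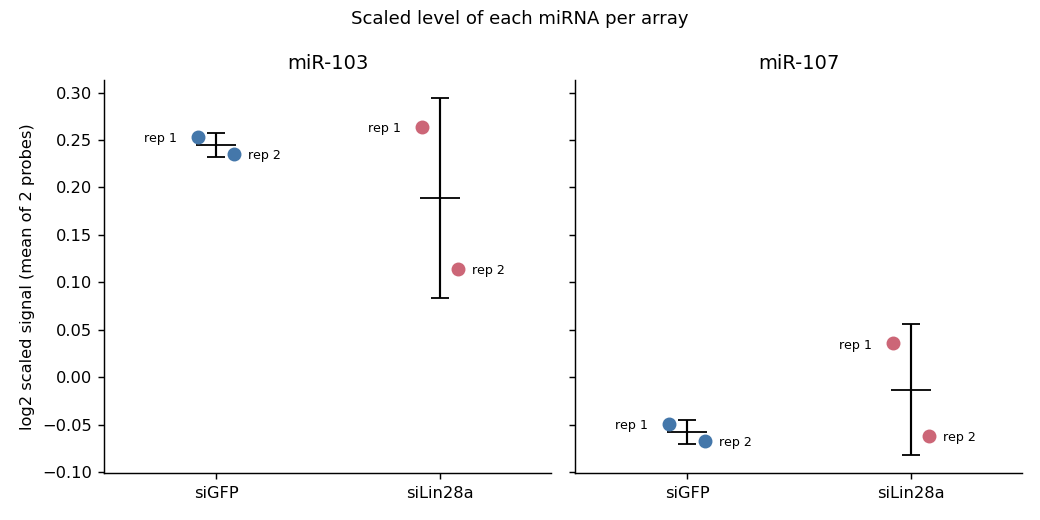
Log2 scaled signal (mean of 2 probes, vertical axis) of miR-103 and miR-107 on each array, by group. Dots are arrays, and the bar and whiskers give the mean ± SD of 2 arrays. The siGFP replicates lie close together and the siLin28a replicates farther apart for both miRNAs, and the groups overlap. Heights are not compared between the 2 miRNAs, whose probes differ.

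Neither miRNA passed the test between groups. miR-103 differed by -0.055 on the log2 scale (SE 0.081, 95% interval -0.29 to 0.18, limma adjusted p = 0.676), a fold of 0.962 (0.818 to 1.13). miR-107, the paralog with GGAG in its loop, differed by 0.045 (SE 0.073, 95% interval -0.17 to 0.26, limma adjusted p = 0.712), a fold of 1.03 (0.891 to 1.19). The intervals leave room for a rise of miR-107 by up to 1.19-fold and a fall to 0.891-fold, so a change of that size was not detectable with 2 arrays per group. Of 231 miRNAs tested, 0.866% were called, which is 2 miRNAs, both higher with siLin28a, and 24.7% had an unadjusted p below 0.05. Among the 231 differences, of which 49.4% were above 0, whose median was 0 and whose middle range ran from -0.21 to 0.24, that of miR-103 ranked 127 from the top and that of miR-107 ranked 100. The groups did not overlap for 61.5% of the tested miRNAs, and miR-103 and miR-107 were among the 38.5% for which they did.

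The sign of either small difference was not settled. For miR-107 it was -0.0046 with the flagged spots kept, -0.13 with scaling over all probes and -0.012 with the total gene signal, and it was 0.25 with no scaling. For miR-103 it was -0.23 with scaling over all probes and 0.15 with no scaling, where the median over all tested miRNAs was itself 0.19. On that unscaled footing miR-103 therefore lay below the median shift and miR-107 above it. With scaling over all probes, the median was -0.16, and miR-103 lay below it and miR-107 above it. A factor per array moves miRNAs above the floor alike, so these positions were largely fixed in advance. Against the median, miR-107 was at -0.030 without siLin28a replicate 1, and miR-103 was at 0.019 without siLin28a replicate 2. Without either siGFP array, miR-103 stayed below the median and miR-107 above it. With normexp, a background correction, the median was -0.054 and both lay above it, miR-103 at -0.030 and miR-107 at 0.028. The scaling also has a direct tie to miR-103, since its probe A_54_P1342 was the probe at the 75th percentile on the first siGFP array and had a scaled signal of 1 there.

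The 2 miRNAs called, let-7a and let-7f, belong to the let-7 family, whose precursors are known to be held back by LIN28A. Neither was well above background on a siGFP array, so both entered the test through the siLin28a arrays alone, and their differences are bounds. They were at least 2.31-fold and at least 2.39-fold higher. Limma gave adjusted p = 0.0210 for each, from a fit in which their siGFP values are all at the floor of the scale. That p has no measured siGFP spread behind it and is not read as support for a rise. For such a bound the siGFP level is each array's own dimmest signal well above background. The fit uses 1 floor for all arrays, the highest of these, so fitted values are not given beside the bounds. Since let-7 was not measured with siGFP, its values set no size against which to read miR-103 and miR-107, and the difference from them was not tested.

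The ratio of the paralogs on an array is not moved by a factor that multiplies the whole array, since dividing an array by any number cancels. Differences between arrays in background, or that depend on intensity, do not cancel. The change of the ratio given below was smaller with quantile normalization (0.073) and with normexp (0.057). The level of the ratio mixes the strengths of different probes and says nothing about which miRNA is more abundant, so only its change between groups is read. The log2 ratio of miR-107 to miR-103 was -0.303 on each siGFP array, and -0.23 and -0.18 on the siLin28a arrays. The groups did not overlap, and the ratio was 0.10 higher with siLin28a on the log2 scale, a relative gain of miR-107 of 1.07-fold. The exact permutation test (two-sided) gave p = 0.333, the smallest this test can give with 4 arrays in 2 groups, so it cannot pass a threshold of 0.05 here. Between arrays of the same replicate number the ratio was higher by 0.074 for replicate 1 and by 0.13 for replicate 2.

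The rise of the ratio did not rest on 1 probe. With probe A_54_P1420 of miR-107 it was 0.11 against either miR-103 probe, and with probe A_54_P1421 it was 0.094 and 0.089. For each of these 4 probe pairs, both siLin28a arrays lay above both siGFP arrays. The pairs share probes and arrays, so they are not 4 independent observations. The ratio between the 2 probes of the same miRNA changed by -0.0043 between groups for miR-103 and by 0.017 for miR-107. The groups overlapped in both cases. Both probes read the same molecule, so variation between miRNAs cancels in such a ratio. It is therefore no scale for a ratio of different miRNAs. With the total gene signal the rise of the paralog ratio was 0.104. It was 0.072 with the flagged spots kept and 0.057 with normexp, which corrects the background differently and adds an offset of 50 to each signal. What made these values smaller was not tested.

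**Figure D3:**
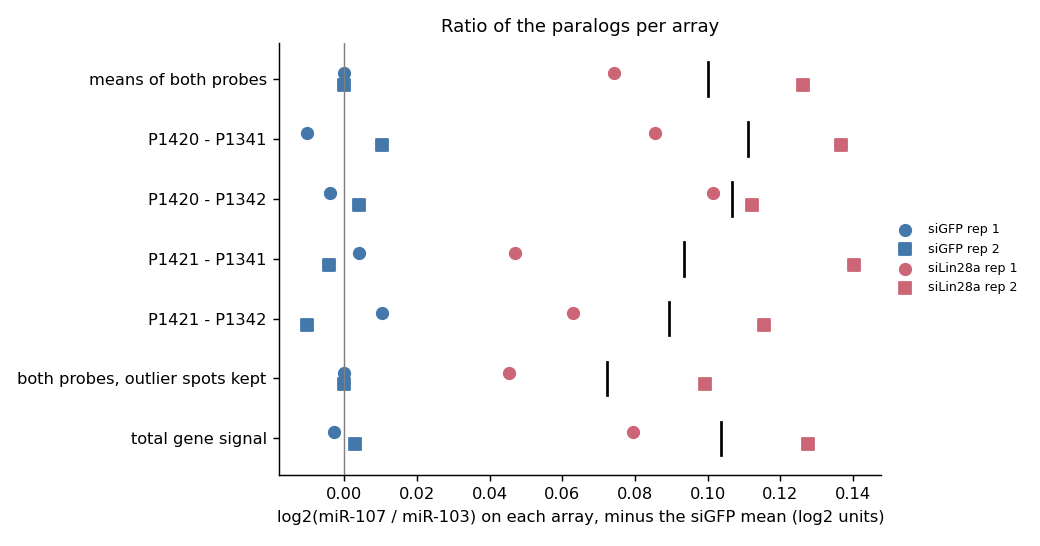
Log2 ratio of miR-107 to miR-103 on each array, set to 0 at the siGFP mean (horizontal axis, log2 units), for the means of both probes, each probe pair, all spots kept and the total gene signal. Circles are replicate 1, squares replicate 2, and the black bar is the siLin28a mean. In every line both siLin28a arrays lie to the right of both siGFP arrays, by a mean of 0.072 to 0.11.

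A ratio that separates the groups is common on these arrays. Of the 26565 pairs that can be formed from the 231 tested miRNAs, 58.4% had a log2 ratio that did not overlap between groups, and 83.6% changed by at least as much as the ratio of miR-107 to miR-103. The median change in size over all pairs was 0.33. A ratio change smaller than that of the paralogs was thus found in a minority of pairs, while a separation of the groups was found in most. How far the probes of one paralog bind the other was not tested, nor was its part in this ratio or in the likeness below. By its profile over the 4 arrays, each centred on its own mean, miR-107 lay at a root mean square distance of 0.053 from miR-103, which placed it 10 of 230 in likeness to miR-103. The same distance placed miR-103 at 20 of 230 in likeness to miR-107. The median distances over all 230 were 0.18 for each.

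The miRNAs most like miR-103 over the 4 arrays were miR-295 (distance 0.0081), miR-291a-3p (0.032) and miR-15a (0.044). miR-295 and miR-291a-3p come from the miR-290 cluster, which is highly expressed in mouse embryonic stem cells. Those most like miR-107 were miR-149 (0.0074), miR-290-5p (0.013) and miR-293 (0.015). miR-149 stood at the floor value of the scale on 3 of 4 arrays and was not well above background with siGFP. These distances rest on 4 values per miRNA and are a description.

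**Figure D4:**
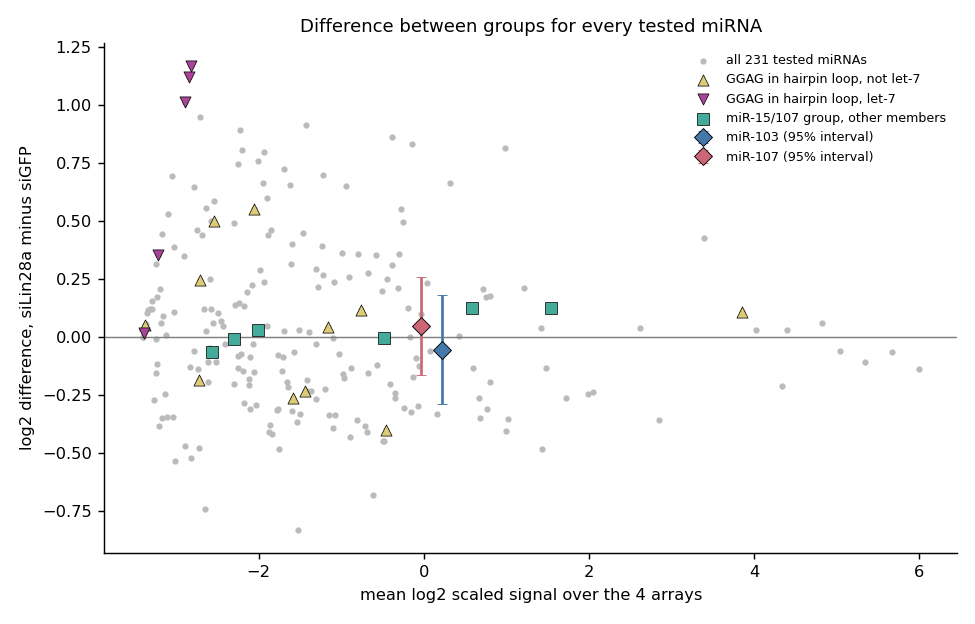
Log2 difference between groups (siLin28a minus siGFP, vertical axis) against the mean log2 scaled signal (horizontal axis) for 231 tested miRNAs, with the 95% limma interval for miR-103 and miR-107. miR-103 and miR-107 lie near 0 inside the cloud, while let-7a, let-7f and let-7g lie above 1. The let-7 points rest on siGFP signals set to the floor and are not measured differences.

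miR-103 and miR-107 belong to a wider group with miR-15 and miR-16, which shares AGCAGC near the 5′ end and is known for repressing cell cycle genes such as cyclins. The guides of 3 other members show how the shared letters sit, with the seed in capitals.
miR-16-5p: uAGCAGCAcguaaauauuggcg
miR-15b-5p: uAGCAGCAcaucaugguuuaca
miR-322-5p: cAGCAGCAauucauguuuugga
In miR-103 and miR-107 the letters AGCAGC begin at base 1, and in these 3 at base 2, so the seeds of the 2 sets are shifted by a base. Of 10 names listed for the group, 9 are on the array and 8 were tested, and miR-503 did not pass the filter. All 8 were well above background on all 4 arrays, as were 209 of the tested miRNAs. None of the 8 was called by limma and 0 had an unadjusted p below 0.05, against 0 and 47 of the 209. For the 8, 4 differences were above 0 and 4 below, and their median was 0.013, against 0 over all tested miRNAs and -0.047 over the 209. miR-16, a repressor of cyclins and BCL2, had levels of 1.44 and 1.51 with siGFP and 1.59 and 1.62 with siLin28a. It differed by 0.13 (SE 0.056, limma adjusted p = 0.265), and miR-15b by 0.12 (SE 0.064, limma adjusted p = 0.294). These were the 2 members of the group whose arrays did not overlap, both higher, against 30.7% of all tested miRNAs that were higher without overlap. miR-15a differed by -0.0039 (SE 0.079), miR-322 by -0.066 (SE 0.090), and the dim miR-195 and miR-497 by -0.010 (SE 0.19) and 0.029 (SE 0.19), with overlapping groups in all 4. With scaling over all probes the values of miR-16 and miR-15b were below 0, at -0.049 and -0.052.

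Of the 3 miRNAs outside let-7 named for a GGAG-like loop, miR-107 and miR-200c were measured on all 4 arrays, and miR-143 was not. The loop of the precursor of miR-200c, a guardian of epithelial identity that represses ZEB1 and ZEB2, is shown beside that of miR-107 with GGAG in capitals.
Mir107 loop: uggcauGGAGuuca
Mir200c loop: gugcugguugGGAGucuc
miR-200c had log2 scaled levels of -2.65 and -2.94 with siGFP and -2.19 and -2.40 with siLin28a, without overlap. It differed by 0.50 (SE 0.15, limma adjusted p = 0.169), which did not pass, and it was -0.033 with normexp. miR-143, known from smooth muscle, entered through the siLin28a arrays alone and was at least 1.09-fold higher (limma adjusted p = 0.202, from siGFP values at the floor). By limma 0 of the 3 passed, and of the 2 measured on all arrays 1 had an unadjusted p below 0.05. Of all 209 tested miRNAs measured on all 4 arrays, 0 passed and 47 had an unadjusted p below 0.05. The difference between miR-107 and the other two was not tested.

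A wider reading took every tested miRNA whose RefSeq hairpin holds GGAG in the segment searched. That segment lay between the arms, or in a fixed stretch on the loop side of the only arm annotated. Of 231 tested names, 173 matched a hairpin, and 17 of these held the motif, 5 from let-7 and 12 outside it. The hairpin of miR-143 was not among those searched, so its loop was not read and it is in neither set. Of the 12 outside let-7, miR-107 included, 11 were well above background on all 4 arrays, and miR-149 was so only with siLin28a. Of the 11, 0 were called by limma and 3 had an unadjusted p below 0.05. Of all 209 tested miRNAs measured on all 4 arrays, 0 were called and 47 had an unadjusted p below 0.05. The differences of the 11 were above 0 for 7 and below 0 for 4, and 4 were higher and 4 lower without overlap. Of the 209, 59 were higher and 70 lower without overlap. The median of the 11 was 0.045, and that of all 12 was 0.055 with miR-149 at its bound. Over the miRNAs measured on all 4 arrays the median was -0.088 for 149 matched to a hairpin without the motif and -0.047 for all 209. With bounds in place it was -0.068 for the 156 without the motif. The range ran from miR-324-5p at 0.55 (SE 0.15, limma adjusted p = 0.159) to miR-409-3p at -0.40 (SE 0.10, limma adjusted p = 0.159), a miRNA of the imprinted Dlk1-Dio3 region. miR-324-3p from the same hairpin as miR-324-5p was at 0.25 (SE 0.12), and miR-409-5p from the same hairpin as miR-409-3p was at -0.19 (SE 0.085). Arms of 1 hairpin share its loop and are not independent. miR-30e was at 0.12 (SE 0.086), miR-690 at 0.11 (SE 0.20) and miR-139-3p at 0.044 (SE 0.14), while miR-181d was at -0.26 (SE 0.18) and miR-363 at -0.23 (SE 0.14). miR-149 has a bound only, 1.05-fold with the scaling used here. In the fit its groups overlapped, and its difference was 0.0 with scaling over all probes and -0.012 with normexp. Its direction was therefore not settled. The miRNAs outside let-7 with these letters in the loop thus spread to both sides of 0. The median of the 11 is the value of miR-107 itself, so it is no separate reference for miR-107. The 5 tested let-7 members all entered through the siLin28a arrays alone. Beside let-7a and let-7f, let-7g had a bound of at least 2.15-fold and let-7e of at least 1.36-fold. Neither passed (limma adjusted p = 0.159 each, from siGFP values at the floor). For let-7d no fold can be given, since its siLin28a level lay below the siGFP bound.

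**Figure D5:**
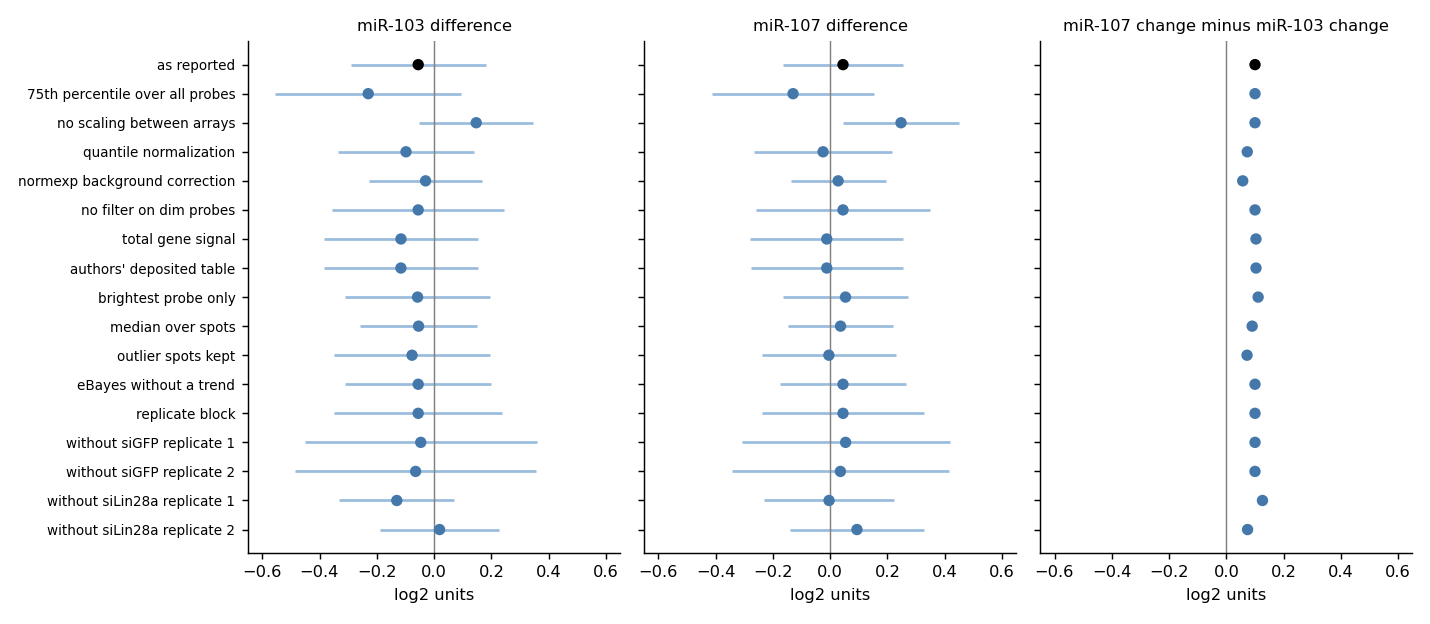
Difference of miR-103, difference of miR-107 and change of their log2 ratio (log2 units, horizontal axes) as reported and under 16 alternative settings (rows). Dots are values and bars are 95% limma intervals, which the ratio does not have. The single differences cross 0 with the scaling, between -0.23 and 0.15 for miR-103 and between -0.13 and 0.25 for miR-107. The change of the ratio lies between 0.057 and 0.13, and a scaling factor per array, the filter, the variance model and the replicate block cannot move it.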

How the data were processed

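Per the labels, total RNA was labelled with Cy3 and hybridised to 1 single-colour array per sample. The deposited scanner files hold intensity values, made with Agilent Feature Extraction 9.5.1.1 per the file headers and 9.5.3.1 per the submitters' processing notes. The processed signal is the spot mean minus a background surface fitted within the array. The authors' deposited table holds total gene signals, equal to the scanner files' within 5% for 100% of 1057 signals above 10.

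The titles gave each sample's group and replicate. Outlier spots (3.21% to 4.32%) were left out and the signals of a probe averaged. Each array was divided by its 75th percentile over 425 probes well above background (at least 50% of spots) on all 4 arrays. The dimmest signal well above background was found on each array, its highest value (0.0948) served as the floor, and values were log2-transformed. Probes entered if both arrays of a group measured them above background in this sense, 477 probes of 231 miRNAs, and averaged per miRNA.

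limma 3.58.1 in R 4.3.3 (lmFit, eBayes with a trend) gave two-sided tests with Benjamini-Hochberg adjustment over 231 miRNAs at a threshold of 0.05, with 2 residual and 1.64 prior degrees of freedom. The fit was tested on simulated data. A fold against a group not well above background is a bound: the siGFP level is replaced by that array's own dimmest signal that passed, or the miRNA's own if higher.

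The members and lists were chosen with earlier results of these data known. The text names every probe of both miRNAs, tested members of the lists, let-7a and let-7f, and the 3 miRNAs most alike to each. Sequences are from RefSeq, build GRCm38.p6. Alternatives covered scaling, background, filter, summary, outliers, variance model, replicate block and leaving out each array.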

Additional observations from a re-analysis of the deposited data

How the results depend on the processing

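The count of called miRNAs, 2 as reported, was 0 with scaling over all probes and with normexp, 52 with no filter on dim probes, and 8 with the total gene signal and with the authors' deposited table. It ranged from 0 to 11 with 1 array left out, where the lone array of a group is assumed to vary like the other group's. Without siGFP replicate 1 or siGFP replicate 2 it was 0, without siLin28a replicate 1 it was 11 and without siLin28a replicate 2 it was 7. miR-103 and miR-107 were not called under any of the 16 alternatives, with limma adjusted p values from 0.241 to 1.0 for miR-103 and from 0.134 to 1.0 for miR-107. The difference of miR-103 turned to 0.15 with no scaling. It lay between -0.13 and 0.019 with 1 array left out, and 0.019 was the value without siLin28a replicate 2. That of miR-107 turned to -0.13 with scaling over all probes, -0.025 with quantile normalization, -0.012 with the total gene signal and with the authors' table, and -0.0046 with outlier spots kept. It lay between -0.0040 and 0.093 with 1 array left out, with -0.0040 without siLin28a replicate 1. The change of the paralog ratio was above 0 in all 16 alternatives and in the 4 probe pairs, which were added after seeing the data. It ran from 0.057 with normexp to 0.13 without siLin28a replicate 1, and was 0.074 without siLin28a replicate 2. Several of these outcomes were fixed in advance. A scaling factor per array, the filter, the variance model and the replicate block cannot move the ratio, and all left its change at 0.10. Since the groups did not overlap, leaving out 1 array cannot turn its sign. The authors' table repeats the total gene signal. The cause of the shifts between settings was not tested.

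With a replicate block the differences were the same, with a wider interval (-0.35 to 0.24 for miR-103 and -0.24 to 0.33 for miR-107), and 2 miRNAs were called. The deviations of arrays with the same number correlated at r = 0.71 over 231 miRNAs, but 2 pairs and no label do not show that the numbers pair the samples.

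Of 320 values for 20 other named miRNAs, 272 kept direction and side of the threshold, 4 gained and 8 lost a call, and 36 changed sign, of which 0 were called. With scaling over all probes these were miR-15b at -0.052, miR-16 at -0.049, miR-497 at -0.15, miR-139-3p at -0.13, miR-30e at -0.057 and miR-690 at -0.066. With no scaling they were miR-15a at 0.20, miR-195 at 0.19, miR-322 at 0.14 and miR-409-5p at 0.016. With normexp they were miR-497 at -0.16, miR-200c at -0.033, miR-139-3p at -0.018, miR-149 at -0.012, miR-30e at -0.0052, miR-324-3p at -0.057 and miR-324-5p at -0.039. miR-497 was at -0.060 with quantile normalization and with outlier spots kept, and at -0.027 with the total gene signal and the authors' table. miR-139-3p was at -0.060 with quantile normalization, -0.088 with the total gene signal, -0.089 with the authors' table and -0.044 with the brightest probe. miR-195 was at 0.021 with the brightest probe, and miR-15a at 0.0022 with the median over spots. With 1 array left out, miR-15a ranged from -0.041 to 0.033, miR-195 from -0.22 to 0.19, miR-497 from -0.13 to 0.19, miR-139-3p from -0.087 to 0.18 and miR-690 from -0.12 to 0.34. let-7a and let-7f lost their call with scaling over all probes, with normexp and without either siGFP array. Of 96 distances of the most alike miRNAs, 9 moved by more than the replicate SD. All spots of miR-103 and miR-107 were well above background, and 2 arrays per group limit the precision.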
